A study of Mus musculus with 8 samples.

Results

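A set of 36 genes that carry MHC class I antigen presentation and the interferon response was followed in mouse epidermis. The members were given as a list of symbols, with no measured value in the rule, and all 36 were found among the 49315 genes of the count files. The 8 libraries came from epidermis isolated from back skin at 22 months of age, labelled as keratinocytes, with 3 from wild-type (WT) mice and 5 from Tgfa knockout (Tgfa KO) mice. The protein made from Tgfa, TGF alpha, activates the EGF receptor, and the series title links it to hair follicle function and hair loss with age. The sources used here do not give strain, sex, the structure of the Tgfa allele or the number of animals, so a p-value reflects only the spread among libraries, which may be technical.

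MHC class I molecules display peptides from inside the cell to CD8 T cells. A heavy chain such as H2-K1 or H2-D1 pairs with the light chain B2m. The peptides are cut by the proteasome, carried into the endoplasmic reticulum by the Tap1 and Tap2 transporter, trimmed by Erap1 and loaded with the help of tapasin (Tapbp), calreticulin (Calr) and Pdia3. Interferons raise many of these genes in responding cells, exchange the catalytic subunits of the proteasome for Psmb8, Psmb9 and Psmb10, and switch on antiviral effectors such as the Mx, Oas and Ifit families. Type I interferon acts through a complex that holds Stat2 and Irf9 and binds interferon-stimulated response elements (ISRE), and interferon gamma through gamma-activated sites (GAS). The hair follicle is known in skin biology as a site of low class I display.

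Several libraries stood apart. Total counts ran from 5313552 in KO replicate 2 to 18292303, and 42326 genes had a count in KO replicate 2 against 23179 to 33963 elsewhere. Genes named as olfactory or vomeronasal receptors, 1700 in all and known for neurons of the nose, reached 4.58 counts per kb of exon in KO replicate 2. WT replicate 3 had 1.84 and WT replicate 2 had 0.933 counts per kb, and the remaining 5 libraries 0.124 to 0.265. The noncoding RNA Malat1 made up 6.61% of the total in WT replicate 3 and 4.88% in KO replicate 1, against 1.34% to 1.84% elsewhere. Tgfa itself (chromosome 6, 86195223 to 86275719, GRCm38) lay at 92.5, 85.1 and 112 CPM (counts scaled to a common library size) in the WT libraries, at 132 CPM in KO replicate 1 and at 34.4, 43.3, 36.2 and 70.1 CPM in KO replicates 2 to 5. The level in KO replicate 1 was above every WT library. The structure of the allele is not known, so the transcript level cannot check the label. For this reason it is called the library labelled KO replicate 1. For Tgfa the log2 fold change was -0.61 (SE 0.43, edgeR adjusted p = 0.899) over all 8 libraries. The names of KO replicates 3 to 5 end in bl and those of the other 5 libraries in br, and no source used here says what the endings mean. Basal keratinocyte markers (Krt5, Krt14, Itga6, Trp63) summed to 3308 to 9938 CPM, so the labelled cell type was present in each library.

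The stretch before a gene's start shows which of these genes hold the letters that interferon-activated factors are known to bind. RefSeq promoters on GRCm38.p6 were found for 31 of the 36 members, with Mx1, Mx2, Nlrc5, Tap2 and Usp18 unmatched. The 250 bases before each start were searched on both strands for an ISRE-like run, GAAA and again GAAA with 2 bases of any kind between, and a GAS-like run, TTCNNNGAA, and overlapping matches were each counted. An ISRE-like run stood in 11 of 31 members (35.48%), against 936 of 27025 genes in the table (3.46%). A GAS-like run stood in 5 of 31 members (16.13%), against 8.13% of genes. The ISRE-like matches fell in 5 of 10 antiviral effectors, in all 3 of Gbp2, Gbp3 and Cxcl10, and in B2m, Stat2 and Isg15, while the 5 peptide loading genes and the 3 immunoproteasome subunits had none. For Tap1, Tapbp, Pdia3, Psmb8, Psmb9 and H2-D1, however, all 250 bases searched lay within annotated exons. A lack of ISRE-like runs there need not hold for the bases upstream of the gene. Oas1a and Psmb8 are shown because they had the highest and lowest log2 fold change among the antiviral and class I genes (Oasl2 and Pdia3, at the other ends, held neither run). Gbp2, Irf1, B2m and Isg15 were chosen after their values were seen, as the lowest members, the most abundant one and one with 3 overlapping runs. Each is written 5′ to 3′ on the gene's own strand, with the matches in capitals.
Oas1a: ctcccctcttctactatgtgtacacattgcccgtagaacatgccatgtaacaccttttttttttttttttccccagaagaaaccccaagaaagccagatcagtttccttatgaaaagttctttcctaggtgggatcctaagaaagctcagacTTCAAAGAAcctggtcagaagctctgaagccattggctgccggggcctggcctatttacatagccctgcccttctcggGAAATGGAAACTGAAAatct
Psmb8: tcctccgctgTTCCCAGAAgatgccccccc
Gbp2: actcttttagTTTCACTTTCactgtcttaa
Irf1: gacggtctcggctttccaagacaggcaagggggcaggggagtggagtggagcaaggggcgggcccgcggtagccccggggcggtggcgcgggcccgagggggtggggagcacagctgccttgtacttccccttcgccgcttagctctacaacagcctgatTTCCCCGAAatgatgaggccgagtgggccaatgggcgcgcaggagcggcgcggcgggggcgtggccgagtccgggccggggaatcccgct
B2m: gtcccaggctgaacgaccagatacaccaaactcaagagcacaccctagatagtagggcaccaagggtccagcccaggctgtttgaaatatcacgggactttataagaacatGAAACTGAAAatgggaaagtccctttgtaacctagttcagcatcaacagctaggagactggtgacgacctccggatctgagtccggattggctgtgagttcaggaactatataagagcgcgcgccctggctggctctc
Isg15: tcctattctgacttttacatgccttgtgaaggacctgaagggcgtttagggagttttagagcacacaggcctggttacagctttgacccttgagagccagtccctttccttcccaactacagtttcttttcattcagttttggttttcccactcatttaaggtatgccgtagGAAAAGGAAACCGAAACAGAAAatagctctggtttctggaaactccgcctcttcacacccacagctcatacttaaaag
The Oas1a stretch (chr5:120907526-120907775, minus strand) holds a GAS-like run and, close to the start, a pair of overlapping ISRE-like runs. The Psmb8 site (chr17:34198088-34198117, plus strand) is GAS-like and lies within an annotated exon of Psmb8. The Gbp2 site (chr3:142620594-142620623, plus strand) is an ISRE-like run read on the other strand, and it too lies within an annotated exon of its gene. The Irf1 stretch (chr11:53769764-53770013, plus strand) holds a GAS-like run, B2m (chr2:122147437-122147685, plus strand) an ISRE-like run, and Isg15 (chr4:156200819-156201068, minus strand) 3 overlapping ISRE-like runs. A match describes letters and was not tested as a binding site.

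The members spanned a wide range of levels in this epidermis, with B2m and the heavy chains at the top and most antiviral effectors among the lowest. Per kb of exon, with CPM averaged over all 8 libraries, B2m stood at 2062 CPM per kb, rank 16 of the 19239 genes that passed the count filter. H2-K1 followed at 185 (rank 155), H2-D1 at 165 (rank 174), Calr at 99.7 (rank 294), Pdia3 at 54.4 (rank 581), Nlrc5 at 40.4 (rank 883), Tapbp at 38.8 (rank 936) and Tap1 at 22.2 CPM per kb (rank 1999). The immunoproteasome subunits were much lower, at 5.26 for Psmb9, 4.79 for Psmb8 and 1.59 CPM per kb for Psmb10. Of the regulators, Irf9 stood at 8.11, Stat2 at 6.95, Irf1 at 5.17 and Irf7 at 1.05 CPM per kb. All 12 antiviral effectors had a WT mean under 10 CPM. Per kb their averages ran from 0.145 for Ifi44 to 1.58 for Xaf1. By WT mean, 8 of the 36 members had at least 100 CPM, 11 had 10 to 100, 10 had 1 to 10 and 7 had less than 1.

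**Figure D1:**
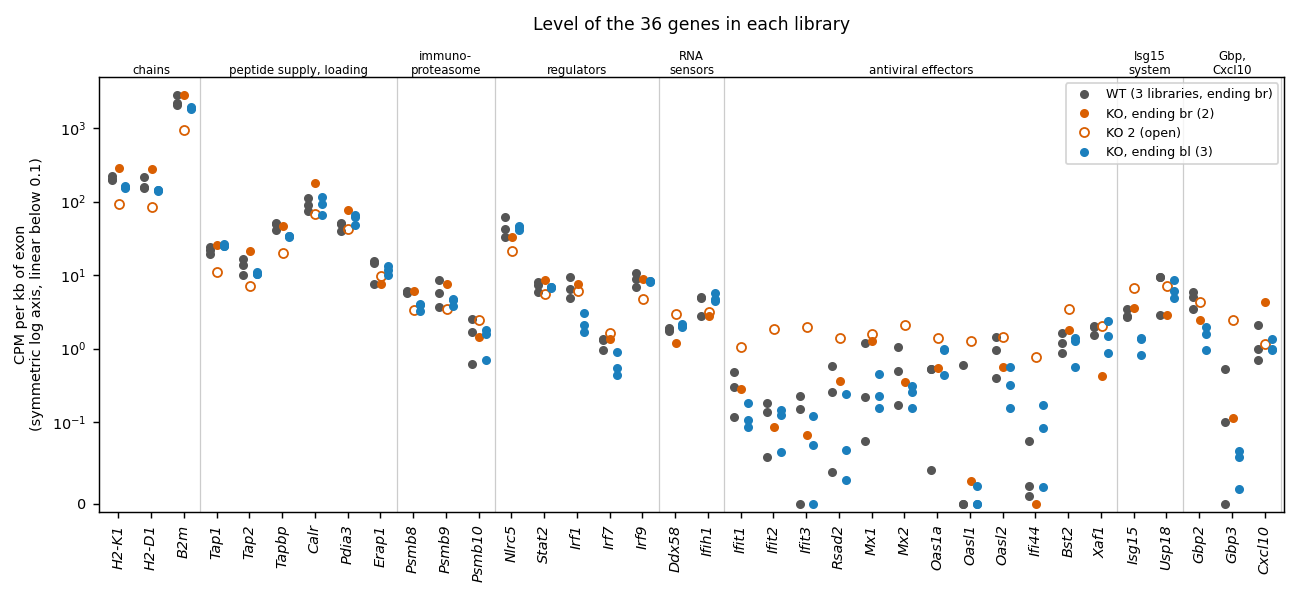
Level of each of the 36 members in each library, in CPM per kb of exon on an axis that is linear near 0 and logarithmic above, grouped by role and with KO replicate 2 as open symbols. B2m lies above every other member, and most antiviral effectors lie among the lowest members, with KO replicate 2 the highest library for 10 of those 12.

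No member passed the test between Tgfa KO and WT epidermis. Of the 36 members, 31 passed the count filter, while Ifit2, Ifit3, Oasl1, Ifi44 and Gbp3 had too few counts. Among those 31, edgeR called 0 higher and 0 lower at an adjusted p under 0.05. Over all 19239 genes tested, 0.0052% were called higher and 0% lower. At an unadjusted p under 0.05, 1 member was lower (Gbp2, 3.23% of 31) and 0 were higher, against 1.85% and 4.44% of all genes (6.28% in either direction), and DESeq2 called 0 members, against 0.574% of genes higher and 0.237% lower (0.81% in either direction). The log2 fold changes, KO minus WT, had a median of -0.17 over the 31 members and 0.16 over all genes, and 20 of 31 members (64.5%) were negative against 38.1% of all genes. That member median was -0.39 without WT replicate 2 and -0.0377 without WT replicate 3. Without KO replicate 2 the median of all genes fell to 0.0237, and that of the members was -0.18. Over all 8 libraries the log2 fold changes of the members ran from -1.11 for Gbp2 to 1.21 for Oas1a, with edgeR adjusted p from 0.697 to 0.993. For 0 of the 31 members did the 5 KO libraries lie wholly outside the WT range, against 3.4% of all genes above it, 1.75% below it and 5.15% in either direction.

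**Figure D2:**
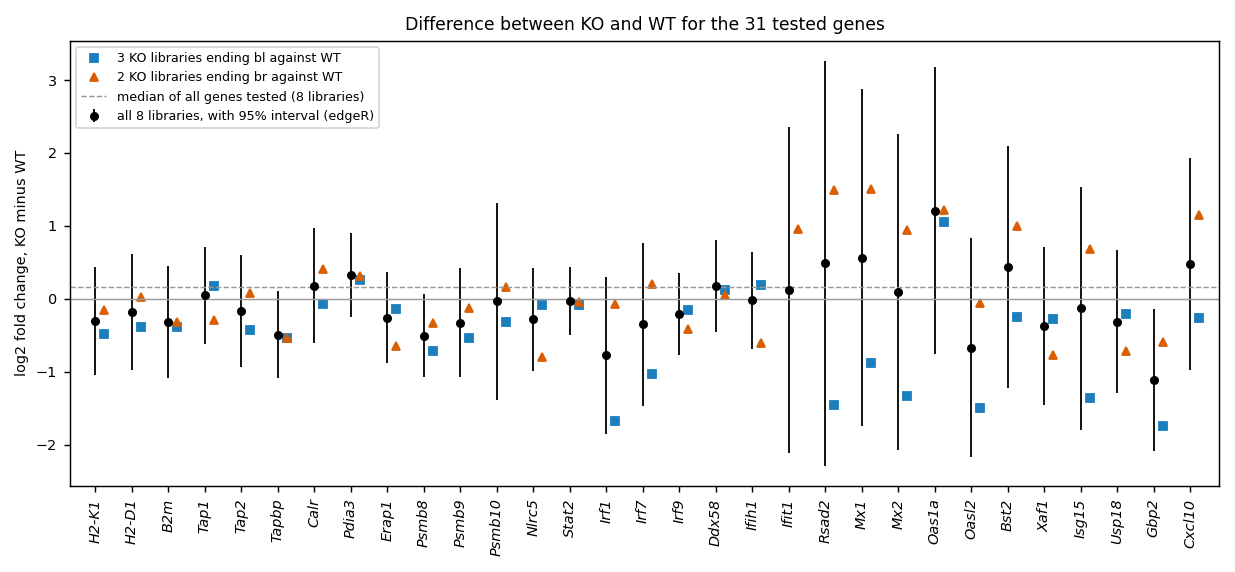
Log2 fold change (KO minus WT) of the 31 tested members by role, with 95% intervals from edgeR for all 8 libraries (black), and point estimates for KO replicates 3 to 5 against WT (squares) and for KO replicates 1 and 2 against WT (triangles); the dashed line is the median of all genes, 0.16. Gbp2, at -1.11, is the 1 member whose interval lies below 0, and the squares lie far below the triangles for Irf1, Irf7, Gbp2, Isg15 and several antiviral effectors.

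The 3 genes of the class I molecule itself had negative log2 fold changes, with a median of -0.30 (-0.58 without WT replicate 2, -0.17 without WT replicate 3), and edgeR called none. H2-K1 (ENSMUSG00000061232, chromosome 17, 33996017 to 34000333), a heavy chain, stood at 537, 519.9 and 591 CPM in WT replicates 1 to 3, at 744 and 244 CPM in the libraries labelled KO replicates 1 and 2, and at 395, 411 and 428 CPM in KO replicates 3 to 5. The library labelled KO replicate 1 was above the WT range and the other 4 KO libraries below it. The means were 549 ± 36.9 CPM (SD, n = 3) and 444 ± 183 CPM (SD, n = 5), a log2 fold change of -0.30 (SE 0.33, 95% interval -1.04 to 0.43, edgeR adjusted p = 0.932). B2m (ENSMUSG00000060802, chromosome 2, 122147686 to 122153083), the light chain, had 1759, 1867 and 2445 CPM in WT, 2429 and 809 CPM in the libraries labelled KO replicates 1 and 2, and 1576, 1681 and 1619 CPM in KO replicates 3 to 5. Its order was close to that of H2-K1, with the library labelled KO replicate 1 inside the WT range (log2 fold change -0.32, SE 0.34, edgeR adjusted p = 0.931). H2-D1, the other heavy chain (chromosome 17, 35262730 to 35267499), ranged from 401 to 565 CPM in WT and from 216 to 712 CPM in KO, with a log2 fold change of -0.18. Heavy chain genes are near-identical in stretches and no source used here says how reads that match several genes were treated, so levels of single heavy chains are uncertain.

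Peptide supply and loading showed no shared direction: Tap1, Calr and Pdia3 had positive log2 fold changes, Tap2, Tapbp and Erap1 negative ones, and the median was -0.06. Tapbp (tapasin, which holds empty class I at the transporter, chromosome 17, 33915899 to 33929288) had 166, 134 and 168 CPM in WT, 152 and 65.6 CPM in the libraries labelled KO replicates 1 and 2, and 114, 109.9 and 113 CPM in KO replicates 3 to 5. All KO libraries apart from the library labelled KO replicate 1 were below the WT range. Tapbp differed by -0.49 on the log2 scale (SE 0.27, 95% interval -1.09 to 0.11, edgeR adjusted p = 0.836), and 20.2% of its exon bases overlap Gm19412 on the other strand, whose reads were not told apart. Pdia3, a thiol oxidoreductase of the loading complex (chromosome 2, 121413775 to 121438687), had 157, 162 and 124 CPM in WT and 244, 133, 206, 191 and 152 CPM in KO replicates 1 to 5. The groups overlapped, with 3 KO libraries above the WT range (log2 fold change 0.33, SE 0.26, edgeR adjusted p = 0.905). Calr, a chaperone (chromosome 8, 84841850 to 84846934), had 256, 216 and 323 CPM in WT and 514, 194, 329.7, 271 and 192 CPM in KO, again overlapping (log2 fold change 0.18). Tap1 ranged from 106 to 133 CPM in WT and from 59.4 to 146 CPM in KO (log2 fold change 0.05), Tap2 from 38.5 to 63.4 and from 26.9 to 81.4 CPM (-0.17), and the peptidase Erap1 from 30.6 to 61.6 and from 30.1 to 53.8 CPM (-0.26).

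The 3 immunoproteasome subunits had negative log2 fold changes (0.0136 for Psmb10 with library totals in place of TMM), with a median of -0.32 (-0.77 without WT replicate 2, -0.0108 without WT replicate 3), and edgeR called none. Psmb8 (chromosome 17, 34197721 to 34201454), whose GAS-like site is printed above, had 16.0, 15.5 and 16.8 CPM in WT, 16.7 and 9.20 CPM in the libraries labelled KO replicates 1 and 2, and 8.82, 10.8 and 10.9 CPM in KO replicates 3 to 5. The library labelled KO replicate 1 lay within the narrow WT range and the other 4 KO libraries were clear of it on the low side. Psmb8 had a log2 fold change of -0.51 (SE 0.26, 95% interval -1.08 to 0.06, edgeR adjusted p = 0.832). Psmb9 (chromosome 17, 34181988 to 34187764) had 21.0, 13.6 and 31.6 CPM in WT and 27.5, 12.7, 13.7, 16.5 and 17.5 CPM in KO replicates 1 to 5, with overlapping groups (log2 fold change -0.32). Psmb10 was low in both, at 1.06 to 4.30 CPM in WT and 1.18 to 4.17 CPM in KO (log2 fold change -0.03). Set against the constitutive subunit that it replaces, Psmb8 stood at 34.9%, 49.7% and 50.3% of Psmb5 per kb in the WT libraries, and at 32.1%, 39.2%, 20.8%, 26.8% and 32.5% in KO replicates 1 to 5. These ratios averaged 45.0% ± 8.72 (SD, n = 3) in WT and 30.3% ± 6.91 (SD, n = 5) in KO, with overlapping ranges. Psmb9 was at 30.4% to 85.4% of Psmb6 in WT and 32.5% to 52.9% in KO, and Psmb10 at 3.54% to 13.1% of Psmb7 in WT and 4.08% to 21.5% in KO.

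All 5 regulators had log2 fold changes below 0, from -0.77 to -0.02, and edgeR called none over all 8 libraries (Irf1 was called in other fits, given further on). Irf1 (ENSMUSG00000018899, chromosome 11, 53770014 to 53778374), a transcription factor induced by interferon gamma, had 25.7, 19.4 and 37.9 CPM in WT, 29.7 and 24.5 CPM in the libraries labelled KO replicates 1 and 2, and 12.1, 8.27 and 6.75 CPM in KO replicates 3 to 5. The libraries labelled KO replicates 1 and 2 sat inside the WT range and KO replicates 3 to 5 well below it. Irf1 differed by -0.77 on the log2 scale (SE 0.48, 95% interval -1.85 to 0.31, edgeR adjusted p = 0.873). Nlrc5, the transactivator of class I genes (chromosome 8, 94434356 to 94527272), had 517, 355 and 283 CPM in WT and 282, 179, 393, 388 and 345 CPM in KO replicates 1 to 5. The KO libraries with the 3 highest values lay inside the WT range (log2 fold change -0.28, SE 0.32, edgeR adjusted p = 0.933). Irf9, the DNA-binding part of the type I interferon complex (chromosome 14, 55603571 to 55610030), had 57.9, 48.2 and 37.0 CPM in WT and 47.8, 25.7, 43.8, 44.3 and 44.7 CPM in KO (log2 fold change -0.21). Stat2 had 25.7 to 34.9 CPM in WT and 23.97 to 37.2 CPM in KO (-0.02), and Irf7, which amplifies type I interferon production, 3.58 to 5.16 and 1.63 to 6.08 CPM (-0.35).

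The cytoplasmic sensors of viral RNA overlapped in level between the genotypes. Ifih1 (MDA5, chromosome 2, 62595798 to 62646255) had 40.9, 40.2 and 22.4 CPM in WT and 22.9, 25.4, 38.4, 36.6 and 46.6 CPM in KO replicates 1 to 5, with WT replicate 3 and the libraries labelled KO replicates 1 and 2 low together. Its log2 fold change was -0.02 (SE 0.30, edgeR adjusted p = 0.992). Ddx58 (RIG-I, chromosome 4, 40203773 to 40239828) had 13.5, 13.0 and 12.04 CPM in WT and 8.48, 20.7, 14.4, 14.0 and 15.03 CPM in KO. The 4 KO libraries other than the library labelled KO replicate 1 were above the WT range, and the log2 fold change was 0.17 (SE 0.28, edgeR adjusted p = 0.937).

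The 12 antiviral effectors were low in both genotypes, and the sign of their median turned when KO replicate 2 was left out. Of the 8 that were tested, 6 had a positive and 2 a negative log2 fold change, edgeR called none, and the median was 0.28. Without KO replicate 2, where 30 members rather than 31 were tested, the median was -0.54. With each library left out in turn, Oas1a stayed above 0 (0.68 to 1.53). Oasl2 (-1.27 to -0.41) and Xaf1 (-0.63 to -0.13) stayed below 0. Oas1a, which makes the messenger that activates RNase L (chromosome 5, 120896256 to 120907521), had 1.01, 0.992 and 0.0782 CPM in WT and 1.03, 2.61, 0.813, 1.83 and 1.88 CPM in KO replicates 1 to 5. KO replicate 3 alone lay within the WT range, the other 4 KO libraries above it, for a log2 fold change of 1.21 (SE 0.88, 95% interval -0.76 to 3.18, edgeR adjusted p = 0.900). With library totals in place of TMM factors, the library labelled KO replicate 1 also fell within the WT range (0.804 CPM against a WT maximum of 0.989 CPM). Counts of Oas1a ran from 1 to 32 per library. Oasl2, an Oas-like protein (chromosome 5, 114896936 to 114912234), had 2.52, 9.26 and 6.17 CPM in WT and 3.54, 9.03, 1.0, 3.54 and 2.02 CPM in KO (log2 fold change -0.67, SE 0.67, edgeR adjusted p = 0.930). Xaf1, a proapoptotic protein induced by interferon (chromosome 11, 72301629 to 72313733), had 9.46, 9.13 and 7.19 CPM in WT and 1.99, 9.38, 11.1, 4.05 and 6.89 CPM in KO (log2 fold change -0.37). Among the other tested effectors, log2 fold changes were 0.12 for Ifit1, which binds foreign RNA caps, 0.49 for Rsad2 (viperin), 0.57 for Mx1 and 0.09 for Mx2, which are antiviral GTPases, and 0.44 for Bst2 (tetherin). The effectors left out of the test, Ifit2, Ifit3, Oasl1 and Ifi44, had 0 to 1.56 CPM in WT and 0 to 1.04 CPM in the KO libraries other than KO replicate 2, where they had 3.30 to 7.29 CPM.

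KO replicate 2 was the highest library for 10 of the 12 antiviral effectors, and it is also the library with the most counts on nasal receptor genes. On log2 of CPM plus 0.5, the median effector in it was 1.86 above the WT mean, against -0.67 to -0.13 in the other 4 KO libraries. Its counts per kb were 0.962 times the receptor gene rate for Ifi44, 1.32 times for Ifit1, 1.77 times for Rsad2 and 2.60 times for Mx2, and 11 of the 12 effectors lay below 3 times that rate. The class I genes were far above it in the same library, at 1183 times for B2m and 118 times for H2-K1. Low ratios were not particular to KO replicate 2: WT replicate 3 had Ifit1 at 0.817, Oas1a at 0.288 and Ifi44 at 0.531 times its own receptor rate, and WT replicate 2 had Ifi44 at 0.35 times. In KO replicate 5, with few receptor gene counts, Ifit1 was at 21.3 times and Mx2 at 35.8 times the rate. Some markers of other cells also summed highest in KO replicate 2. Endothelial markers had 52.3 CPM there and at most 11.6 CPM elsewhere. Adipocyte markers had 17.5 and at most 1.798 CPM, and skeletal muscle markers 19.97 and at most 5.78 CPM. Fibroblast markers had 73.5 and at most 39.7 CPM. The plasmacytoid dendritic cell, neutrophil, melanocyte and erythroid lists were highest there too. Keratinocyte, Langerhans cell, T cell, leukocyte and macrophage lists were not highest there. The share of all genes highest there is not given here, so 10 of 12 is not read as a trait of antiviral effectors. Whether the counts of these effectors in KO replicate 2 have the source of its receptor gene counts was not tested.

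**Figure D3:**
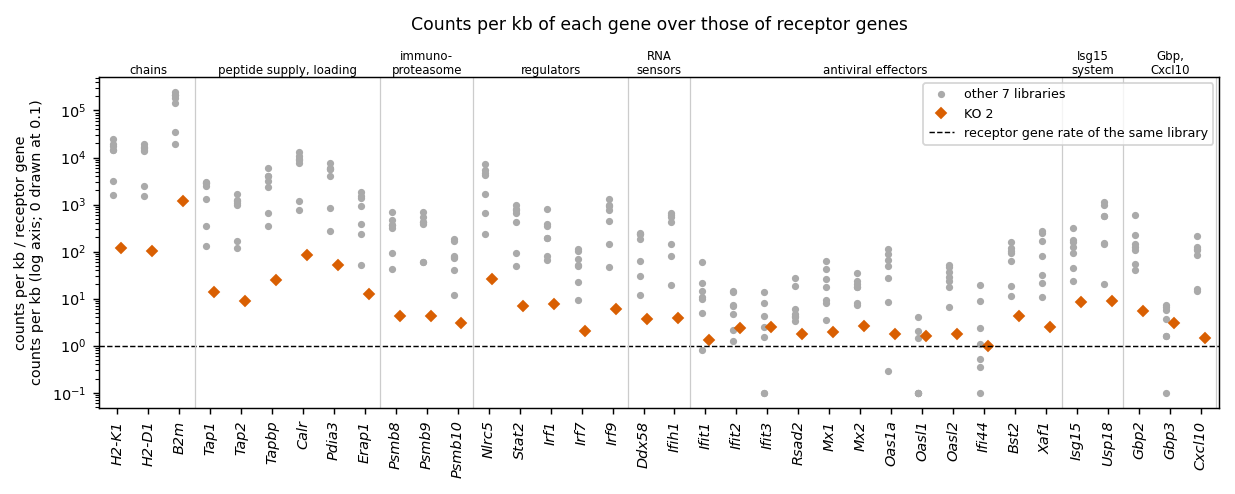
Counts per kb of each member divided by the counts per kb of receptor genes in the same library (log axis, with 0 drawn at 0.1), with KO replicate 2 as diamonds and the other 7 libraries as points. In KO replicate 2 the antiviral effectors sit between 0.962 and 4.36 times the receptor rate, while B2m sits at 1183 times.

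The ubiquitin-like modifier Isg15 and its protease Usp18 had log2 fold changes of -0.13 and -0.31. Isg15 (chromosome 4, 156199424 to 156200818), whose 3 ISRE-like runs are printed above, had 2.02, 2.12 and 2.58 CPM in WT, 2.65 and 5.04 CPM in the libraries labelled KO replicates 1 and 2, and 0.625, 1.03 and 1.04 CPM in KO replicates 3 to 5. The KO libraries thus lay on both sides of the WT range (SE 0.75, edgeR adjusted p = 0.978). Usp18 (chromosome 6, 121245906 to 121270917) had 26.5, 26.7 and 8.05 CPM in WT and 7.89, 19.8, 24.1, 16.9 and 13.6 CPM in KO replicates 1 to 5, with overlapping groups (SE 0.44, edgeR adjusted p = 0.935).

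Gbp2, a guanylate binding protein strongly induced by interferon gamma (ENSMUSG00000028270, chromosome 3, 142620602 to 142638008), had the most negative log2 fold change of the 31 tested members. It had 12.7, 8.67 and 14.7 CPM in WT, 6.19 and 10.8 CPM in the libraries labelled KO replicates 1 and 2, and 4.88, 3.99 and 2.37 CPM in KO replicates 3 to 5. KO replicate 2 lay inside the WT range and the other 4 KO libraries below it. The means were 12 ± 3.07 CPM (SD, n = 3) and 5.64 ± 3.19 CPM (SD, n = 5), with a log2 fold change of -1.11 (SE 0.44, 95% interval -2.08 to -0.13, unadjusted p = 0.0296, edgeR adjusted p = 0.697). Cxcl10, a chemokine that draws T cells (chromosome 5, 92346638 to 92348889), had 1.57, 2.25 and 4.69 CPM in WT and 9.58, 2.61, 2.13, 3.08 and 2.23 CPM in KO replicates 1 to 5. The library labelled KO replicate 1 alone lay above the WT range, and the log2 fold change of 0.47 (edgeR adjusted p = 0.935) was -0.18 without it. Gbp3 was not tested and had 0 to 1.72 CPM in WT, 7.99 CPM in KO replicate 2 and 0.0571 to 0.369 CPM in the remaining 4.

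**Figure D4:**
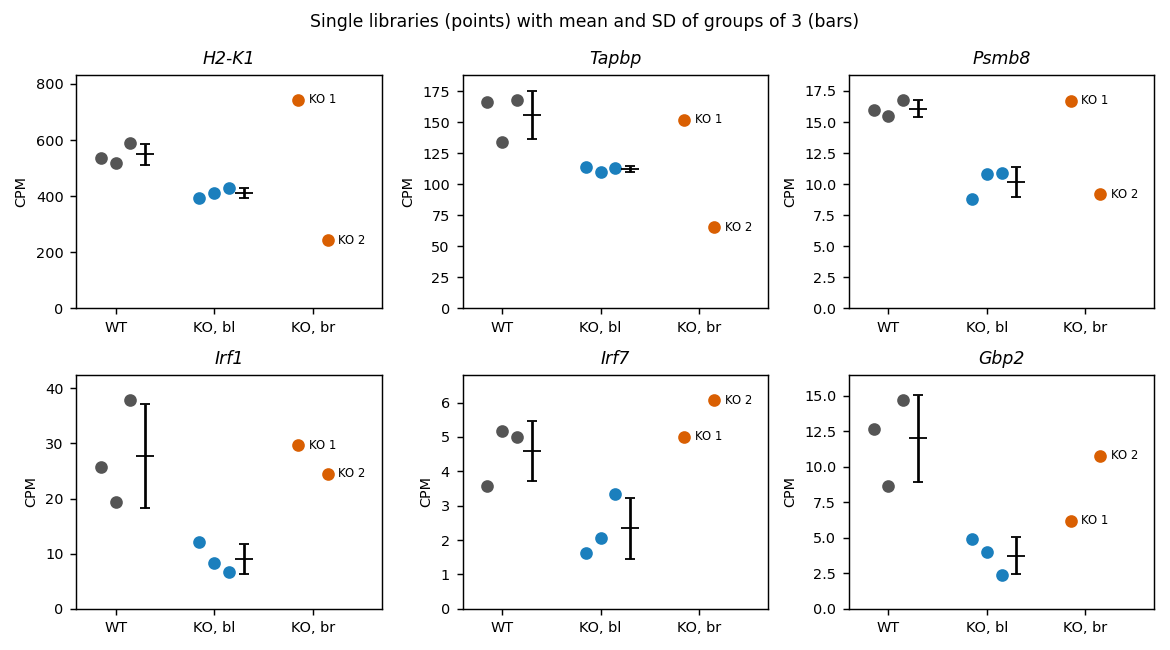
CPM of H2-K1, Tapbp, Psmb8, Irf1, Irf7 and Gbp2 in each library, with mean and SD (bars) of the 3 WT libraries and of KO replicates 3 to 5 (ending bl), and the libraries labelled KO replicates 1 and 2 (ending br) as single points; the genes were chosen after their values were seen. KO replicates 3 to 5 lie below all 3 WT libraries in each panel, while the library labelled KO replicate 1 lies within or above the WT range in all panels but that of Gbp2.

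The KO libraries were spread widely around the WT level, in opposite directions for the first 2. For the 9 genes of the class I molecule and its loading, the library labelled KO replicate 1 was the highest of the 8 libraries for 5 and KO replicate 2 the lowest for 6. With library totals in place of TMM factors, KO replicate 2 was still the lowest for 6, while the library labelled KO replicate 1 was the highest for 2 and WT replicate 3 for 4. H2-K1 on that scale was at 524, 518 and 583 CPM in WT, 580 and 265 CPM in the libraries labelled KO replicates 1 and 2, and 411, 441 and 444 CPM in KO replicates 3 to 5, so the library labelled KO replicate 1 then fell inside the WT range.

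**Figure D5:**
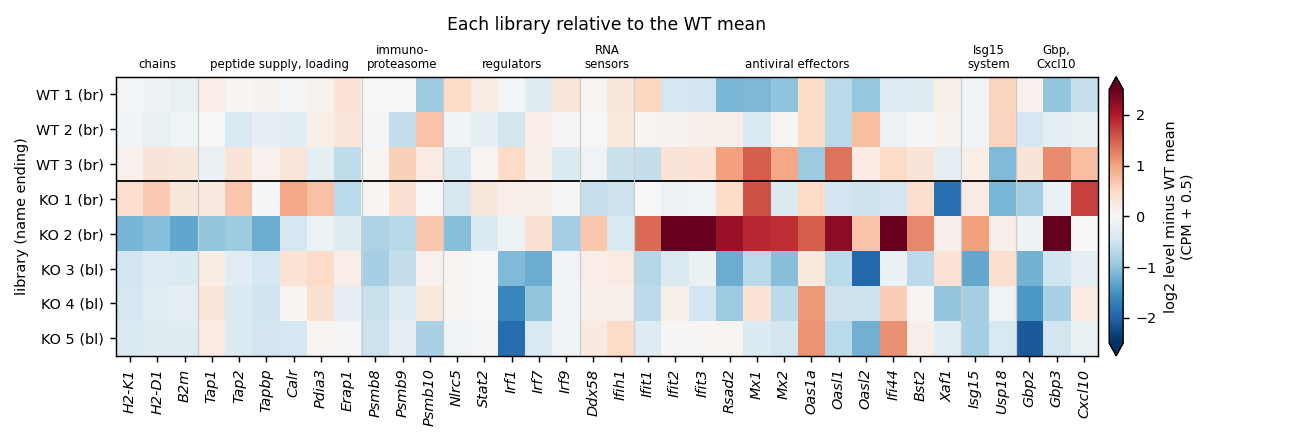
Log2 of CPM plus 0.5 minus the WT mean for each of the 36 members (columns, by role) in each of the 8 libraries (rows, with the ending of the library name), red above and blue below the WT mean. KO replicate 2 is low for class I genes and high for antiviral effectors, and KO replicates 3 to 5 share low values of Irf1, Irf7, Isg15 and Gbp2.

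In KO replicates 3 to 5, 9 of the 31 members were lower than every WT library (H2-K1, H2-D1, B2m, Tapbp, Psmb8, Irf1, Irf7, Isg15 and Gbp2) and 2 were higher (Tap1 and Ddx58). These are 29% and 6.45% of the tested members, against 13% and 17.2% of all genes. For B2m and H2-D1 this depended on the TMM factors. With library totals, KO replicate 4 had 1806 CPM of B2m against a WT minimum of 1718 CPM, and 400.3 CPM of H2-D1 against 399.9 CPM. With TMM, H2-K1 averaged 411 ± 16.3 CPM (SD, n = 3) in KO replicates 3 to 5, Irf1 9.05 ± 2.77 CPM and Gbp2 3.75 ± 1.27 CPM. Against the 3 WT libraries, edgeR called 0 of 30 members, and 0.0579% of all genes higher and 0.0637% lower. Irf1 had a log2 fold change of -1.68 and Gbp2 of -1.74 (edgeR adjusted p = 0.0724 for each), Psmb8 of -0.71, H2-K1 of -0.48 and Tapbp of -0.53. At an unadjusted p under 0.05 there were 8 of 30 members (26.7%), all lower, against 21.6% of all genes in either direction. In this comparison the label ending and the genotype cannot be told apart.

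Among libraries ending in br, the libraries labelled KO replicates 1 and 2 gave log2 fold changes of -0.07 for Irf1, -0.60 for Gbp2 and -0.15 for H2-K1 against WT. None of 34 members was called there, nor was any gene (0%), and 0 members had an unadjusted p under 0.05 in edgeR, against 2.36% of all genes. KO replicates 3 to 5 were then set directly against the libraries labelled KO replicates 1 and 2. In that test edgeR called 0 of 31 members and 0% of all genes, and 7 members (22.6%) had an unadjusted p under 0.05 against 17.5% of all genes. Irf1 had the smallest p of the members, with a difference of -1.64 (unadjusted p = 0.000991, edgeR adjusted p = 0.149). The other 6 were Mx1 at -2.39 (adjusted p = 0.190), Ifih1 at 0.69 (0.209), Isg15 at -2.15 (0.220), Rsad2 at -3.02 (0.247), Mx2 at -2.39 (0.260) and Gbp2 at -1.24 (0.275). For Mx1, Rsad2 and Mx2 the difference includes the high values of KO replicate 2 described above.

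Calls on members appeared where the libraries that stood apart counted less, and calls over all genes rose there as well. With limma voom quality weights, which were 0.284 for the library labelled KO replicate 1, 0.366 for KO replicate 2, 0.339 for WT replicate 3 and 1.47 to 2.26 for the others, 2 of 31 members (6.45%) were called lower and 0 higher. Over all genes 3.07% were called lower and 3.39% higher, 6.46% in either direction, so the share of members called was near that of all genes. The members called were Gbp2 (log2 fold change -1.40, adjusted p = 0.0178) and Irf1 (-1.22, adjusted p = 0.0253), followed by Psmb8 at -0.62 (adjusted p = 0.0581). Those 3 libraries were also left out together, a choice made after seeing the data. There edgeR called 4 of 31 members lower (12.9%) and 0 higher. Over all genes 5.32% were called lower and 5.25% higher, 10.6% in either direction. The 4 members were Irf1 (log2 fold change -1.35, adjusted p = 0.0123), Gbp2 (-1.54, adjusted p = 0.0184), H2-K1 (-0.39, adjusted p = 0.0474) and Tapbp (-0.45, adjusted p = 0.0483). That fit compares 2 WT libraries ending in br with 3 KO libraries ending in bl.

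Markers of Langerhans cells and of MHC class II were also lower in these libraries. Cd207, Cd74, H2-Aa, H2-Ab1 and H2-Eb1 summed to 576 to 899 CPM in WT and 207 to 457 CPM in KO replicates 3 to 5, with 836 CPM in the library labelled KO replicate 1 and 394 CPM in KO replicate 2. All 5 had negative log2 fold changes, with a median of -0.76, and edgeR called none over all 8 libraries. In the fit with quality weights that called Gbp2 and Irf1, Cd207 (-1.18, limma adjusted p = 0.0192) and H2-Eb1 (-1.06, adjusted p = 0.0444) were called lower as well. The T cell list (Cd3e, Cd3d, Cd3g, Trdc, Thy1, Cd8a and Cd4) summed to 41.6 to 81.0 CPM in WT and 80.7 to 146 CPM in KO replicates 3 to 5, most of it from Thy1 and Cd3e. Within it, Cd8a had 2.57 to 10.5 CPM in WT and 0.399 to 1.81 CPM in KO replicates 3 to 5, and Cd4 had 0.672 to 1.88 CPM in WT and 0 to 0.114 CPM there, so both lay below every WT library (edgeR adjusted p = 0.137 and 0.0846 against WT). Markers of all leukocytes (Ptprc, Coro1a and Laptm5) covered 45.6 to 67.1 CPM in WT and 42.6 to 73.1 CPM in KO. In bulk epidermis fewer cells of a type and less RNA per cell cannot be told apart, and the part of these cells in the values of H2-K1, B2m, Irf1 or Gbp2 was not tested.

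The wider class I family had negative values, as did H2-K1. Of 15 further family genes 10 were tested, all 10 had negative log2 fold changes with a median of -0.48, and edgeR called none. H2-T24, a nonclassical class I gene, had 41.3, 23.4 and 39.5 CPM in WT and 17.5, 11.3, 20.4, 22.3 and 21.2 CPM in KO replicates 1 to 5. All 5 KO libraries lay below WT, as did those of 1.75% of all genes (log2 fold change -0.90, SE 0.28, edgeR adjusted p = 0.580). H2-M2 stood at -0.64 and H2-T22 at -0.62, and reads shared within the family leave each uncertain. Further presentation genes showed 5 of 8 positive values and a median of 0.04, with the aminopeptidase Lnpep at -0.60, the proteasome activator Psme1 at -0.31 and the class II regulator Rfxank at 0.41. The 14 constitutive proteasome subunits had a median of -0.07, with 11 negative, and Psmb7 (-0.20), Psmb2 (-0.16) and Psma1 (-0.19) had the smallest p.

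The interferons themselves were nearly silent. Of 14 interferon genes 1 was tested, Ifnk, which encodes the interferon kappa of keratinocytes, with 1.46, 1.06 and 2.27 CPM in WT and 1.84, 0.868, 3.63, 2.11 and 0.418 CPM in KO replicates 1 to 5 (log2 fold change 0.16, edgeR adjusted p = 0.974). Ifng, the gene of interferon gamma, had 0 to 0.728 CPM in WT, 2.08 CPM in KO replicate 2 and 0 to 0.0626 CPM in the remaining 4. Receptors, kinases and suppressors of the pathway had a median log2 fold change of -0.06, with 6 of 14 positive, and the smallest p belonged to the kinases Jak2 (-0.50) and Tyk2 (0.44) and the suppressor Socs3 (0.49). In the nucleic acid sensing list, 6 of 12 tested genes were positive. Its members with the smallest p were Zbp1 (1.59, with 10.9 CPM in KO replicate 2 and 0.438 to 1.47 CPM elsewhere), Ticam1 (-0.56) and Tlr3 (0.55). No gene of these lists was called by edgeR over all 8 libraries.

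In the lists of further response genes edgeR also called none over all 8 libraries. Of 38 further interferon-stimulated genes 33 were tested, 19 positive and 14 negative, with a median of 0.15, close to the 0.16 of all genes. Tor3a (-0.62, edgeR adjusted p = 0.683), the antiviral zinc finger gene Zc3hav1 (-0.53, adjusted p = 0.816) and the kinase gene Eif2ak2 (0.67, adjusted p = 0.836) had the smallest p. Of 19 genes responsive to interferon gamma 15 were tested, 5 positive and 10 negative, with a median of -0.12. The immunity-related GTPase Igtp had 9.24, 7.34 and 15.6 CPM in WT, 8.84 and 6.08 CPM in the libraries labelled KO replicates 1 and 2, and 3.44, 4.11 and 5.08 CPM in KO replicates 3 to 5. As for Gbp2, KO replicates 3 to 5 lay below the WT range (log2 fold change -0.96, edgeR adjusted p = 0.696), and with quality weights Igtp was called (-0.999, adjusted p = 0.0388). Irgm2, of the same family, stood at -0.85 and the chemokine gene Cxcl9 at 1.01 (edgeR adjusted p = 0.712 and 0.900).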

How the data were processed

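Total RNA of isolated epidermis was sequenced in 8 libraries (3 WT, 5 Tgfa KO) as paired-end reads. The authors deposited raw counts, 1 file of whole numbers for each library. The submitters' processing notes name STAR 2.5.2b, Trimmomatic 0.36, Subread 1.5.2 with featureCounts, and both GRCh38 and GRCm38. Per the file headers, reads were counted over exons of mouse Ensembl genes. No source used here states strandedness or the treatment of reads that match several genes, so overlapping genes (Tap1 and Psmb9 share 212 exon bases) were not told apart. A symbol was matched to 48970 of 49315 genes. Groups came from the genotype labels. Replicate numbers follow the deposition order and pair nothing, and every pair of libraries differed beyond sampling noise (lowest chi-square per gene 13.74).

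Genes were tested with edgeR 4.0.16 (R 4.3.3; TMM, filterByExpr, robust quasi-likelihood, Benjamini-Hochberg over the 19239 genes tested, threshold 0.05; biological coefficient of variation 63.7%). CPM values use TMM library sizes, and total counts of 5313552 to 18292303 set the precision of low genes. The procedure was run on simulated counts in which no library was set apart from its group, unlike here, and no result rests on that run. The members and lists were chosen with earlier results of these data known, so no list was tested as a set. Libraries are named in each role group for the 2 members with the highest mean and the member with the smallest p, and up to 3 genes of each further list are named by smallest p. Alternatives were DESeq2 1.42.0, limma 3.58.1 voom with quality weights, library totals, no count filter, an adjusted p threshold of 0.1, a term for the label ending, the br libraries alone, KO libraries ending in bl against WT, each library left out and, added after seeing the data, WT replicate 3 with KO replicates 1 and 2 left out.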

Additional observations from a re-analysis of the deposited data

Results flagged for a closer look

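For 13 members 1 KO library lay apart from the other 4 by most of the KO range (a gap above 0.71 of the range). For normally distributed values chance gives such a gap in about 1 in 20 groups, which need not hold for low counts. The share over all genes is not given here, so the count of 13 is not read as a trait of these members. KO replicate 2 was the library set apart for 10 members. It was low for the transporter gene Tap1, at 59.4 CPM with the next library at 135 CPM, and for the regulator Irf9, at 25.7 CPM with the next at 43.8 CPM. It was high for Ifit1 at 2.78 CPM, Ifit2 at 7.29 CPM, Ifit3 at 3.47 CPM, Rsad2 at 6.08 CPM, Mx2 at 7.47 CPM, Oasl1 at 3.30 CPM, Ifi44 at 4.69 CPM and Gbp3 at 7.99 CPM. The next highest KO library for these 8 genes had 0.0737 to 1.55 CPM. The library labelled KO replicate 1 lay apart for 3 members, all on the high side. It had 81.4 CPM of Tap2 with the next library at 41.5 CPM, 16.7 CPM of Psmb8 with the next at 10.9 CPM, and 9.58 CPM of Cxcl10 with the next at 3.08 CPM. The WT group, with 3 libraries, was too small for this check.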

How the results depend on the processing

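No member was called under DESeq2, library totals, no count filter, an adjusted p threshold of 0.1, a term for the label ending, the br libraries alone, KO libraries ending in bl against WT or any single library left out. Members were called lower with quality weights (2) and without WT replicate 3 and KO replicates 1 and 2 together (4). Over all genes, 1 was called higher and 0 lower, against 97 and 40 with DESeq2, 8 and 1 without the filter, 653 and 590 with quality weights, 10 and 11 for KO libraries ending in bl, 0 higher among libraries ending in br, 935 and 948 without those 3 libraries, and 0 to 1 in each direction with 1 library left out. The median of all genes moved from 0.16 to 0.52 with DESeq2, 0.53 without the filter, -0.01 with quality weights and -0.02 for KO libraries ending in bl. The cause of these differences was not tested.

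Signs turned for weakly differing members. They were Psmb10 (0.0136) and Ifih1 (0.0321) with library totals; Stat2 (0.0437), Ifit1 (-1.35), Rsad2 (-0.65), Mx2 (-0.50) and Bst2 (-0.0667) with quality weights; and H2-D1 (0.013), Tap1 (-0.27), Tap2 (0.0813), Psmb10 (0.25), Irf7 (0.27), Oasl2 (0.0554) and Isg15 (0.77) with the ending as a covariate. Among libraries ending in br they were H2-D1 (0.0204), Tap1 (-0.29), Tap2 (0.0812), Psmb10 (0.17), Irf7 (0.20) and Isg15 (0.68). With KO libraries ending in bl they were Calr (-0.0697), Ifih1 (0.19), Rsad2 (-1.45), Mx1 (-0.88), Mx2 (-1.33), Bst2 (-0.26) and Cxcl10 (-0.26), and without those 3 libraries Ifit1 (-1.63), Rsad2 (-0.44) and Mx2 (-0.50).

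Medians also moved. With quality weights they were -0.49 for antiviral effectors and -0.81 for Isg15 and Usp18. With the ending as a covariate they were 0.013 for all members, -0.0276 for regulators, 1.09 for antiviral effectors and 0.31 for guanylate binding proteins and chemokine. Among libraries ending in br they were -0.066 for regulators, -0.27 for sensors and 0.28 for guanylate binding proteins and chemokine. With KO libraries ending in bl they were -0.35 for all members, -0.88 for antiviral effectors, -0.79 for Isg15 and Usp18 and -0.997 for guanylate binding proteins and chemokine. Without those 3 libraries the median of Isg15 and Usp18 was -0.90.

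With each library left out in turn, medians ran from -0.39 to -0.0377 for all members, -0.58 to -0.17 for class I chains, -0.26 to 0.067 for peptide loading, -0.77 to -0.0108 for immunoproteasome, -0.52 to -0.00478 for regulators, -0.0801 to 0.20 for sensors, -0.54 to 0.68 for antiviral effectors, -0.59 to -0.10 for Isg15 and Usp18, -0.76 to 0.0383 for guanylate binding proteins and chemokine. Members whose sign turned in some of these fits ran -0.00695 to 0.69 for Bst2, -0.20 to 0.34 for Calr, -0.18 to 1.03 for Cxcl10, -0.0668 to 0.31 for Ddx58, -0.26 to 0.14 for Ifih1, -0.28 to 0.58 for Ifit1, -0.78 to 0.11 for Isg15, -0.17 to 2.27 for Mx1, -1.15 to 0.85 for Mx2, -0.53 to 0.0339 for Nlrc5, -0.43 to 0.16 for Psmb10, -0.84 to 0.0162 for Psmb9, -0.79 to 1.42 for Rsad2, -0.37 to 0.12 for Stat2, -0.17 to 0.20 for Tap1, -0.58 to 0.00168 for Tap2. Members that stayed below 0 in all 8 fits included Gbp2 (-1.55 to -0.91), Irf1 (-1.23 to -0.50), Psmb8 (-0.77 to -0.43), Tapbp (-0.83 to -0.38), H2-K1 (-0.58 to -0.18), B2m (-0.64 to -0.17). Those that stayed above 0 were Oas1a (0.68 to 1.53) and Pdia3 (0.19 to 0.41).

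No paired analysis was possible because the replicate numbers come from the order of deposition. Counts limit the low genes most: 5 members could not be tested, 7 had a WT mean under 1 CPM, and KO replicate 2 had 5313552 counts in all, so 1 count there is worth more CPM than in any other library. The label endings split the KO group and not the WT group. Genotype rested on the labels alone, and in the library labelled KO replicate 1 the Tgfa level was above every WT library.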

Other observations

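Neighbouring genes of the class II region on chromosome 17 that serve class I presentation did not share a direction in KO replicates 3 to 5. Tap1 (34187553 to 34197225) had 135, 146 and 137 CPM there against 106 to 133 CPM in WT, so these KO libraries were above every WT library. Psmb8 (34197721 to 34201454), the next gene, had 8.82 to 10.9 CPM against 15.5 to 16.8 CPM and was below every WT library. Psmb9, which overlaps Tap1 on the opposite strand, and Tap2 overlapped WT in range.

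A further pattern joined WT replicate 3 to the library labelled KO replicate 1, the libraries with the highest Malat1 shares (6.61% and 4.88% of counts). Usp18 had 8.05 and 7.89 CPM in them against 13.6 to 26.7 CPM in the other 6 libraries, and Erap1 had 30.6 and 30.1 CPM against 39.1 to 61.6 CPM. B2m, at 2445 and 2429 CPM, and H2-D1, at 565 and 712 CPM, were instead highest in the same 2 libraries, with 809 to 1867 CPM and 216 to 413 CPM elsewhere. Markers of other cells differed in these libraries too. The macrophage list summed to 97.4 and 116 CPM in them against 22.3 to 70.7 CPM elsewhere. Most of that came from Cd68, at 55.6 and 72.4 CPM against 2.56 to 9.90 CPM. The rest of the list was mixed. Adgre1 was also highest in these libraries, Itgam was lowest in them (0.625 and 0.737 CPM), and Csf1r and Lyz2 were highest in KO replicates 4 and 2. The basal keratinocyte gene Itga6 was lowest in WT replicate 3 and the library labelled KO replicate 1, at 296 and 366 CPM. So was Trp63, at 506 and 748 CPM. Krt5 and Krt14, of the same list, were instead lowest in WT replicate 3 and KO replicate 2. The part of library quality or of macrophages in these values was not tested.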
